A study of Mus musculus with 2 samples.

Results

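The pyruvate dehydrogenase complex and the enzymes that switch it off and on were followed here through 10 genes, chosen by symbol from the 23284 genes of the count files. They encode 4 subunits of the complex (Pdha1, Pdhb, Dlat and Pdhx), 4 kinases (Pdk1, Pdk2, Pdk3 and Pdk4) and the catalytic subunits of 2 phosphatases (Pdp1 and Pdp2). The tested library came from primary mouse hepatocytes, liver cells taken from C57BL/6 mice and kept in culture, infected with lentivirus carrying an shRNA against JMJD3, a demethylase of histone H3 lysine 27 encoded by Kdm6b. The other came from the same kind of cells infected with a control lentivirus. Each group was 1 library from cells pooled from 5 mice, infected 24 h after plating and left with the virus for 48 h. All cells, controls included, then spent 6 h in 5 mM glucose with 10 µM forskolin, which raises cyclic AMP, as an imitation of fasting. The comparison asks which of these transcripts differ when JMJD3 is reduced under that treatment. Since each group is 1 library, nothing below could be checked against a spread between replicates. Brackets hold 95% intervals from the exact binomial distribution of the counts, which cover counting error only.

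The complex sits in the mitochondrial matrix and turns pyruvate, the end product of glycolysis, into acetyl-CoA, so it commits carbon from sugar to oxidation or to fat synthesis. Its first enzyme, E1, is built from alpha subunits (Pdha1) and beta subunits (Pdhb). E2 (Dlat) carries the lipoate arm that takes up the acetyl group, the E3-binding protein (Pdhx) ties in E3, and E3 (Dld), which is shared with other complexes, reoxidises lipoate. The kinases phosphorylate serines of the alpha subunit and stop the enzyme, and the phosphatases remove these phosphates. In fasting the kinases spare pyruvate for glucose synthesis, and in rodent liver Pdk2 is the abundant form while Pdk4 is known as the form induced by fasting.

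The JMJD3 shRNA library held 18334366 counts and the control library 11099562, a 1.65-fold difference in depth. Kdm6b stood at 33.0 CPM (counts scaled to library size with TMM factors) in the JMJD3 shRNA library against 90.7 CPM in control, which gave a log2 ratio of -1.46 (-1.60 to -1.31). Of the hepatocyte markers, Trf, Alb and Apob were abundant in both libraries, though not steady. Trf was at 4254 CPM in the JMJD3 shRNA library against 4282 CPM in control. Alb was lower, at 793.6 CPM against 1519 CPM, and Apob higher, at 2229 CPM against 1300 CPM. Apoa1 was at 2.93 CPM in the JMJD3 shRNA library against 3.29 CPM in control and Cyp2e1 had 0 counts in both. Cps1 had 3.87 CPM in the JMJD3 shRNA library against 222.9 CPM in control and Fgb 846.4 CPM against 3987 CPM. Of 11 measured hepatocyte markers 7 were lower and 1 higher by the rule of size defined below, and the list summed to 8718 CPM in the JMJD3 shRNA library against 13934 CPM in control. Of 7 measured cholangiocyte markers 0 were lower and 4 higher, with 8434 CPM against 8099 CPM in sum. Most of both sums was Spp1, at 8011 CPM in the JMJD3 shRNA library against 7795 CPM in control, which did not pass. Macrophage markers, 0 of 5 lower or higher, summed to 27.9 CPM against 26.3 CPM, with Clec4f at 0 counts in both. Stellate cell markers, 3 of 9 lower and 0 higher, summed to 239.9 CPM against 256.1 CPM, endothelial markers, 3 of 9 lower and 1 higher, to 59.4 CPM against 65.2 CPM, and blood cell markers, 0 of 1 measured lower or higher, to 2.60 CPM against 2.85 CPM, with Cd3e, Ms4a1, Nkg7 and Hbb-b1 at 0 in both. The part of these markers in the results below was not tested, and fewer cells of a type and less RNA per cell cannot be told apart in such libraries.

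All 10 genes were measured, that is, they averaged at least 1 CPM over the libraries, and 3 of 10 passed the rule of size as lower in the JMJD3 shRNA library. These were the kinases Pdk2 and Pdk4 and the E1 beta gene Pdhb. The rule asks for a ratio at least 1.5-fold from 1 and an interval that excludes 1. Among all 12607 measured genes 12.8% passed as lower. In the other direction 0 of the 10 passed, against 15.3% of all measured genes. The median log2 ratio of the 10 genes was -0.22, beside -0.0039 for all measured genes, and 8 of 10 ratios were below 1, as were 50.3% of those of all measured genes. The interval excluded 1 for 6 of the 10 genes, and Pdha1 was the one among them that was higher in the JMJD3 shRNA library. The median ratio of all genes also varied with exon length, being -0.24 on the log2 scale for the shortest 25% of genes (up to 1842 bp) and 0.25 for the longest 25% (from 4358 bp).

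**Figure D1:**
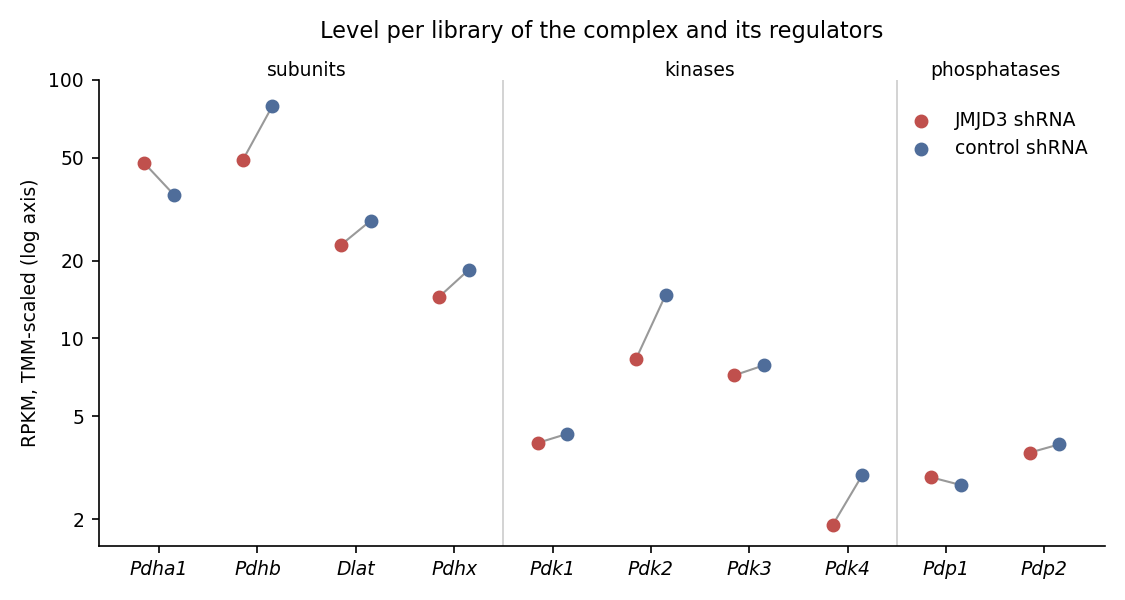
Level of each gene in the JMJD3 shRNA library (red, left) and the control library (blue, right), as TMM-scaled RPKM (reads per kilobase of exon, scaled to library size) on a log axis. Points are single libraries with no error bar, and the subunits lie above the kinases and phosphatases except that Pdk2 in the control library, at 14.7, lies just above Pdhx in the JMJD3 shRNA library, at 14.5.

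The E1 genes had ratios on opposite sides of 1. Pdha1 had 2380 counts in the JMJD3 shRNA library and 1116 in control, which is 131.4 CPM against 99.3 CPM. Its log2 ratio was 0.40 (0.30 to 0.51), higher but short of the rule of size. Pdhb had 1316 counts in the JMJD3 shRNA library and 1320 in control, nearly equal numbers from libraries of unlike depth, which is 72.7 CPM against 117.4 CPM. Its log2 ratio was -0.69 (-0.80 to -0.58), a 1.62-fold lower level. The count of Pdha1 set against that of Pdhb was 2.14 times as high in the JMJD3 shRNA library as in control (1.92 to 2.38), a comparison in which library scaling and the division by gene length cancel. The trend of the ratio with exon length does not cancel, and without it the value was 1.91 (1.72 to 2.13). Per kilobase, the alpha to beta ratio was 0.973 in the JMJD3 shRNA library and 0.455 in control.

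Both E1 values carry a limit. In the gene models 603 of the 2761 bp of Pdha1 exon are shared with Map3k15, where reads of either gene go uncounted. Counted per kilobase of the 2158 bp not shared, the alpha to beta ratio was 1.24 in the JMJD3 shRNA library and 0.582 in control, so the order of the E1 genes in the JMJD3 shRNA library depends on this choice. Map3k15 itself had 6.13 CPM against 4.36 CPM. Pdhb, with 1485 bp of exon, is the shortest of the 10 genes, and once the trend of the ratio with exon length was removed its log2 ratio was -0.52 and no longer passed.

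In mm9 Pdha1 occupies chrX:156560151-156576268 with 11 exon blocks and Pdhb chr14:8998505-9005506 with 10, both on the minus strand. The 250 bases before each start are shown because these partner genes had ratios on opposite sides of 1. They are RefSeq sequences on GRCm38.p6, a later build than that of the counts, at chrX:160138431-160138680 and chr14:8172993-8173242, both minus strand and 5′ to 3′. Capitals mark the CCAAT box, the GC box GGGCGG and the cyclic AMP response half-site TGACG, on either strand.
Pdha1: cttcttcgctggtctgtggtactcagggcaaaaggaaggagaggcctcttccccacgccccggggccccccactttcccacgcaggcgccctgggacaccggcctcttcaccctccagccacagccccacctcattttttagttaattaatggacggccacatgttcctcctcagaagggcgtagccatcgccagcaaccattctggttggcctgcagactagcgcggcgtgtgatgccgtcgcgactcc
Pdhb: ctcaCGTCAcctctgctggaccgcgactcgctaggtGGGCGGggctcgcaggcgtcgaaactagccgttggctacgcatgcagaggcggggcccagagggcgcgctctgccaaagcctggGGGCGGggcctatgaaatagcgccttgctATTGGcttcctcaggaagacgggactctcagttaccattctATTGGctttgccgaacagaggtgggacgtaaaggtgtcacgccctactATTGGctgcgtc
The Pdhb window held 3 CCAAT boxes, 2 GC boxes and 1 half-site, and the Pdha1 window held 0 of each. Of 32851 such windows of mouse genes, 33.8% hold a CCAAT box, 32.7% a GC box and 17.8% the half-site. These are matches of letters and say nothing of binding.

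The E2 and E3-binding genes lay between the E1 genes and side by side. Dlat had 1682 counts in the JMJD3 shRNA library and 1294 in control, or 92.9 CPM against 115.1 CPM, a log2 ratio of -0.31 (-0.42 to -0.20). Pdhx had 664 counts in the JMJD3 shRNA library and 524 in control, or 36.7 CPM against 46.6 CPM, a log2 ratio of -0.35 (-0.51 to -0.18). Neither passed the rule of size, though both intervals lay below 0. Pdhx against Dlat gave an odds ratio between libraries of 0.975 (0.849 to 1.12), so a shift of the pair against each other was not detectable at this depth. Pdha1 against Dlat was 1.64 times as high in the JMJD3 shRNA library (1.48 to 1.82), and Dlat against Pdhb 1.30 times (1.17 to 1.45). With the length trend removed the value for Dlat against Pdhb was 1.07 (0.964 to 1.19), an interval that includes 1, and Pdhx against Dlat stood at 1.08 (0.943 to 1.24). The median log2 ratio of the 4 subunits was -0.33. In mm9 Dlat occupies chr9:50442738-50467885 and Pdhx chr2:102861213-102913670, both on the minus strand.

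**Figure D2:**
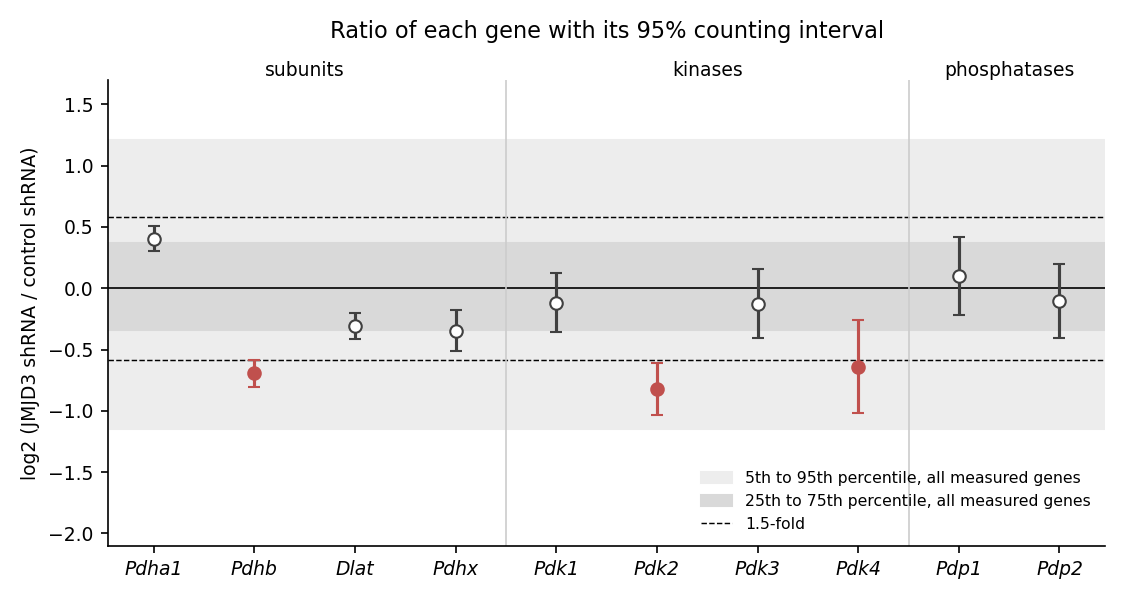
Log2 ratio of the JMJD3 shRNA library over the control library for each gene, with exact binomial 95% intervals of the counts. Filled red points passed the rule of size, dashed lines mark 1.5-fold, and the grey bands span the 25th to 75th and 5th to 95th percentiles of all 12607 measured genes, within which the points of all 10 genes lie (5th to 95th).

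Pdk2 and Pdk4 were lower and Pdk1 and Pdk3 were close to even. Pdk2, the kinase with the most reads in the control library, had 342 counts in the JMJD3 shRNA library and 375 in control. That is 18.9 CPM against 33.4 CPM, a log2 ratio of -0.82 (-1.04 to -0.61) or a 1.77-fold lower level, the lowest ratio among the 10 genes. Its ratio lay at the 8.29th percentile of all measured genes. Pdk4 had 119 counts in the JMJD3 shRNA library and 115 in control, or 6.57 CPM against 10.2 CPM. Its log2 ratio was -0.64 (-1.02 to -0.26), a 1.56-fold lower level that only just passed.

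The other kinases had intervals that included 1. Pdk1, a target of the hypoxia factor HIF-1, had 367 counts in the JMJD3 shRNA library and 247 in control, or 20.3 CPM against 22.0 CPM, a log2 ratio of -0.12 (-0.35 to 0.12). Pdk3 had 261 counts in the JMJD3 shRNA library and 177 in control, or 14.4 CPM against 15.7 CPM, a log2 ratio of -0.13 (-0.41 to 0.16). Both intervals lie inside the 1.5-fold limits of the rule.

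Set against Pdk2 within each library, Pdk1 was 1.63 times as high in the JMJD3 shRNA library as in control (1.30 to 2.04) and Pdk3 1.62 times (1.26 to 2.07). With the length trend removed these values were 1.37 (1.09 to 1.71) for Pdk1 and 1.65 (1.29 to 2.12) for Pdk3. Pdk4 against Pdk2 gave 1.13 (0.835 to 1.54), so no difference between these lower kinases was detectable on so few reads. Pdk4 against Pdk1 gave 0.696 (0.509 to 0.954), and 0.752 (0.550 to 1.03) with the length trend removed.

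The windows before the starts of the lower kinases are shown beside that of Pdhb. They lie at chr11:95041372-95041621 for Pdk2, at the outermost of its starts, and at chr6:5496279-5496528 for Pdk4, both on the minus strand of GRCm38.p6, with capitals as above.
Pdk2: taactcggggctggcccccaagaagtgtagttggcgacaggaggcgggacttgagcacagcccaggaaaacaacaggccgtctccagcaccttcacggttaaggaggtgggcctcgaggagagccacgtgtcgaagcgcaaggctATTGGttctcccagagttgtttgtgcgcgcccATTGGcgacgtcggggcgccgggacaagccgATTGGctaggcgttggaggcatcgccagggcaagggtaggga
Pdk4: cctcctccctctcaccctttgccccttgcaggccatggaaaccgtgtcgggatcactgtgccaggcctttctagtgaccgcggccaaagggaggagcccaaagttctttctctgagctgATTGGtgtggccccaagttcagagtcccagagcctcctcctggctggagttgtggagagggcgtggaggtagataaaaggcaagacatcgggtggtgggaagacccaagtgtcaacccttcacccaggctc
The Pdk2 window held 3 CCAAT boxes, all read as ATTGG on this strand, and the Pdk4 window held 1. Neither held a GC box or the half-site. The second annotated start of Pdk2, at chr11:95040876-95041125, had 0 CCAAT boxes, 0 GC boxes and 0 half-sites before it, and the start used in these cells is not known from the files. Taking the first window of each gene, CCAAT boxes were present in 5 of the 9 genes with a window, beside 33.8% of all windows. These 5 genes were Pdhb, Pdk2 and Pdk4, which passed as lower, and Pdk3 and Pdp2, which did not pass. GC boxes were in 6 of the 9 windows, beside 32.7% of all windows, and the half-site in 3 of the 9, beside 17.8%. These sets are unlike, since all windows means 32851 windows of 27025 genes, later starts included. Those were not matched to the 9 genes by expression or CpG content. The Pdk4 window had 6 CpG dinucleotides, equal to the median of 6 over all windows, while the Pdk2, Pdhb and Pdha1 windows had 19, 20 and 15. The full cyclic AMP response element TGACGTCA (in 1.55% of all windows), which contains the half-site, the forkhead motif TGTTTAC (3.17%) and the nuclear receptor half-site AGGTCA (14.0%) were in 0 of these 9 windows on either strand. Longer stretches were not searched.

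The make-up of the kinase transcripts differed between the libraries. Per kilobase of exon, Pdk2 made 39.0% of the summed kinase signal in the JMJD3 shRNA library and 49.4% in control. Pdk3 made 33.7% against 26.4%, Pdk1 18.4% against 14.3% and Pdk4 8.89% against 9.92%. The order Pdk2, Pdk3, Pdk1, Pdk4 was the same in both libraries. The length trend was not removed from these shares or from those of plain reads. Pdk1 is among the longest 25% of genes, whose median log2 ratio was 0.25. As plain reads the share of Pdk2 was 31.4% (28.7% to 34.3%) in the JMJD3 shRNA library and 41.0% (37.8% to 44.3%) in control, and on that scale Pdk1, with its 5137 bp of exon, came first in the JMJD3 shRNA library at 33.7% (30.9% to 36.6%) against 27.0% (24.2% to 30.0%) in control. In mm9 Pdk2 occupies chr11:94887572-94902685, Pdk4 chr6:5433351-5446278 and Pdk3 chrX:91009955-91077434, all on the minus strand, and Pdk1 chr2:71711329-71741915 on the plus strand.

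**Figure D3:**
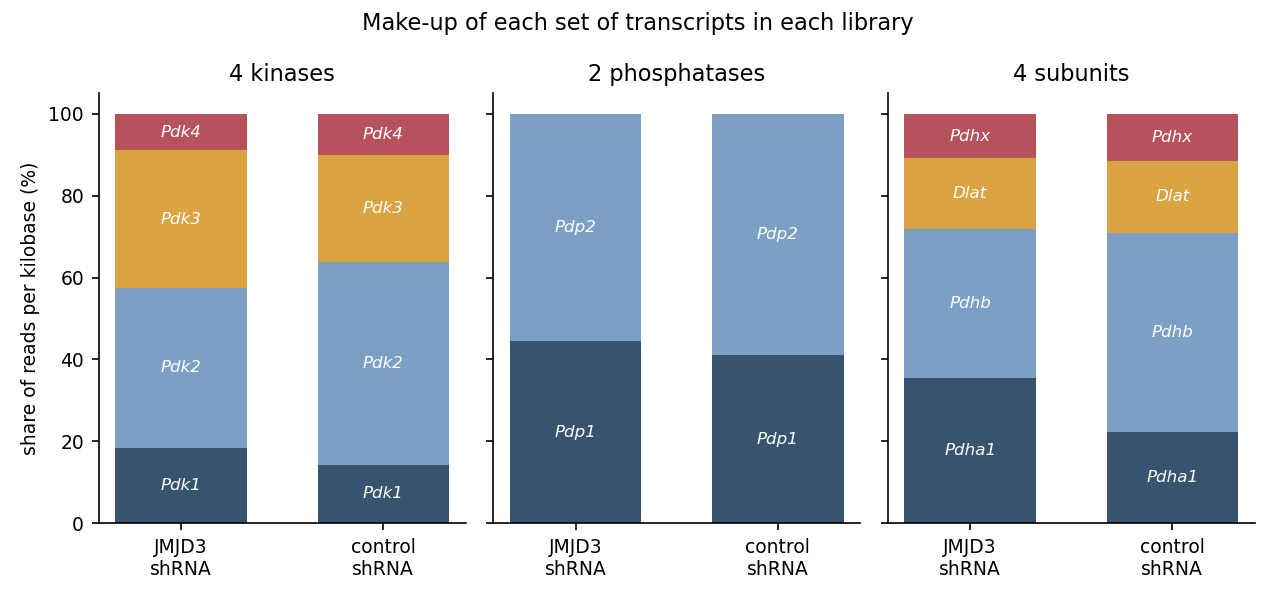
Share of each gene in the summed reads per kilobase of the 4 kinases, the 2 phosphatases and the 4 subunits, in percent, with the JMJD3 shRNA library left of the control library. Pdk2 took 39.0% against 49.4% of the kinases, and Pdha1 35.5% against 22.2% of the subunits. The shares use the full exon length, the part of Pdha1 shared with Map3k15 included, and the length trend was not removed.

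The phosphatase genes did not differ beyond counting error. Pdp1, the calcium-responsive form, had 226 counts in the JMJD3 shRNA library and 131 in control, or 12.5 CPM against 11.7 CPM, a log2 ratio of 0.10 (-0.22 to 0.42). Pdp2, the form without calcium control, had 229 counts in the JMJD3 shRNA library and 153 in control, or 12.6 CPM against 13.6 CPM, a log2 ratio of -0.11 (-0.41 to 0.20). Pdp1 against Pdp2 gave an odds ratio of 1.15 (0.847 to 1.57). Per kilobase Pdp2 was the larger, at 55.5% of the pair in the JMJD3 shRNA library and 58.9% in control. In mm9 Pdp1 occupies chr4:11885332-11893597 on the minus strand and Pdp2 chr8:107115368-107120749 on the plus strand.

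Kinase reads were fewer for each phosphatase read in the JMJD3 shRNA library. The 4 kinases summed to 21.4 RPKM in the JMJD3 shRNA library against 29.9 RPKM in control, and the 2 phosphatases to 6.52 RPKM against 6.60 RPKM. The per-kilobase ratio of kinases to phosphatases was 3.28 in the JMJD3 shRNA library and 4.52 in control. By plain reads, with 1089 kinase and 455 phosphatase reads in the JMJD3 shRNA library and 914 and 284 in control, the odds ratio was 0.744 (0.623 to 0.887). Against the 4 subunits, with 6042 reads in the JMJD3 shRNA library and 4254 in control, the odds ratio of the kinases was 0.839 (0.761 to 0.925). Much of the difference lay in Pdk2, already described, at 18.9 CPM in the JMJD3 shRNA library against 33.4 CPM in control. The 4 kinases together had 60.1 CPM in the JMJD3 shRNA library against 81.3 CPM in control. Removal of the length trend, halved counts and leaving out Pdk2 were not tried on these sums. The values are ratios of transcripts, and protein and phosphorylation were not measured here.

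Compared per length, every subunit gene had a higher RPKM than every kinase and phosphatase gene within the same library. By full exon length, the order in the JMJD3 shRNA library began with Pdhb at 48.9 RPKM and Pdha1 at 47.6 RPKM, then Dlat at 23.0 and Pdhx at 14.5. In control it began with Pdhb at 79.1 RPKM, then Pdha1 at 36.0, Dlat at 28.5 and Pdhx at 18.5. Pdhb thus stood at the 87.2nd percentile of measured genes in the JMJD3 shRNA library and at the 92.5th in control. Over the exon not shared with Map3k15, Pdha1 was at 60.9 RPKM in the JMJD3 shRNA library, above Pdhb. In control it was then at 46.0 RPKM, below Pdhb. The regulators were lower in both libraries, with Pdk4 the least in the JMJD3 shRNA library at 1.90 RPKM, against 2.96 in control, where Pdp1 at 2.71 was the least.

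The authors' deposited table gives the same ratios for the 10 genes to within 0.000662 on the log2 scale. There 2 of the 10 genes, in the authors' deposited table, had an adjusted p-value under 0.05 with a lower level, beside 11.8% of its 12838 genes, and 0 of the 10 with a higher one, beside 14.6%. Pdk2 had an adjusted p-value of 0.00286 and Pdhb one of 0.0067 in the authors' deposited table. Pdk4 had 0.0868 and Pdha1 0.149 in the authors' deposited table, so the call on Pdk4 rests on the rule of size alone. How the p-values of the authors' deposited table were obtained from 1 library a group is not stated in the labels or headers.

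Of the remaining genes of the complex 1 passed as higher and 0 as lower. Dld, the E3 subunit, had 142.8 CPM in the JMJD3 shRNA library against 162.9 CPM in control, for a log2 ratio of -0.19 (-0.28 to -0.10). Pdpr, the regulatory subunit that in cattle is known to hold back Pdp1, had 371 counts in the JMJD3 shRNA library and 121 in control, or 20.5 CPM against 10.8 CPM, a log2 ratio of 0.93 (0.63 to 1.24) that passed as higher. In the authors' deposited table its adjusted p-value was 0.00184. Pdpr against Pdp1 was 1.78 times as high in the JMJD3 shRNA library as in control (1.31 to 2.42). Its exons share 185 of 2904 bp with 9430091E24Rik, where reads go uncounted. Pdha2, an intronless relative of Pdha1 known from testis, had 0 counts in both libraries.

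Genes that bring pyruvate to the complex or use it were lower in 5 of 18 measured cases and higher in 0, with a median of -0.25. Beside this count and those of the lists below, 12.8% of all measured genes passed as lower and 15.3% as higher. Both parts of the mitochondrial pyruvate carrier passed as lower. Brp44, the older symbol of Mpc2 in RefSeq, had 21.0 CPM in the JMJD3 shRNA library against 53.1 CPM in control, for a log2 ratio of -1.34 (-1.53 to -1.15). Brp44l, the older symbol of Mpc1, had 14.0 CPM against 21.7 CPM, a log2 ratio of -0.64 (-0.90 to -0.38). With 854 bp (Brp44) and 907 bp (Brp44l) of exon, both are among the shortest 25% of genes, whose median log2 ratio was -0.24. The length trend was not removed for the genes of this list or of the lists below. The monocarboxylate transporter Slc16a7 was lowest at -2.92 (-3.46 to -2.41), on 39 counts in the JMJD3 shRNA library and 183 in control. The liver pyruvate kinase Pklr was highest at 0.31 and did not pass, nor did the other pyruvate kinase Pkm2 at -0.10. The alanine aminotransferase Gpt2, at -0.72, and the lactate dehydrogenase subunit Ldhb, at -1.04, named after its values were seen, passed as lower.

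Genes for lipoate attachment and thiamine supply, which serve the cofactors of E2 and E1, were mixed, with 1 of 12 lower, 1 higher and a median of -0.24. The lipoyltransferase Lipt1 was highest at 11.5 CPM in the JMJD3 shRNA library against 7.65 CPM in control (log2 0.59, interval 0.22 to 0.97). The acyl carrier protein Ndufab1 was lowest at -0.89 (-1.23 to -0.55). The most abundant, the thiamine transporter Slc19a2 and the iron-sulphur protein Glrx5, were at 0.46 and -0.46 and did not pass.

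The sister complexes, which work on 2-oxoglutarate and branched-chain 2-oxoacids and use the same E3, had 2 of 9 genes lower and 0 higher, with a median of -0.12. Ppm1k, the phosphatase of the branched-chain complex, was lowest at 11.8 CPM in the JMJD3 shRNA library against 35.2 CPM in control (log2 -1.58, interval -1.83 to -1.34), and its kinase Bckdk was highest at 0.11 (-0.08 to 0.31). The abundant Ogdh and Dlst were at -0.38 and 0.11. Bckdhb, the beta subunit of the branched-chain E1, passed as lower at -0.71 (-0.96 to -0.47), and its partner Bckdha was at -0.40 (-0.52 to -0.28), both named after their values were seen. Bckdhb has 1398 bp of exon, less than Pdhb, and its ratio still carries the length trend.

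**Figure D4:**
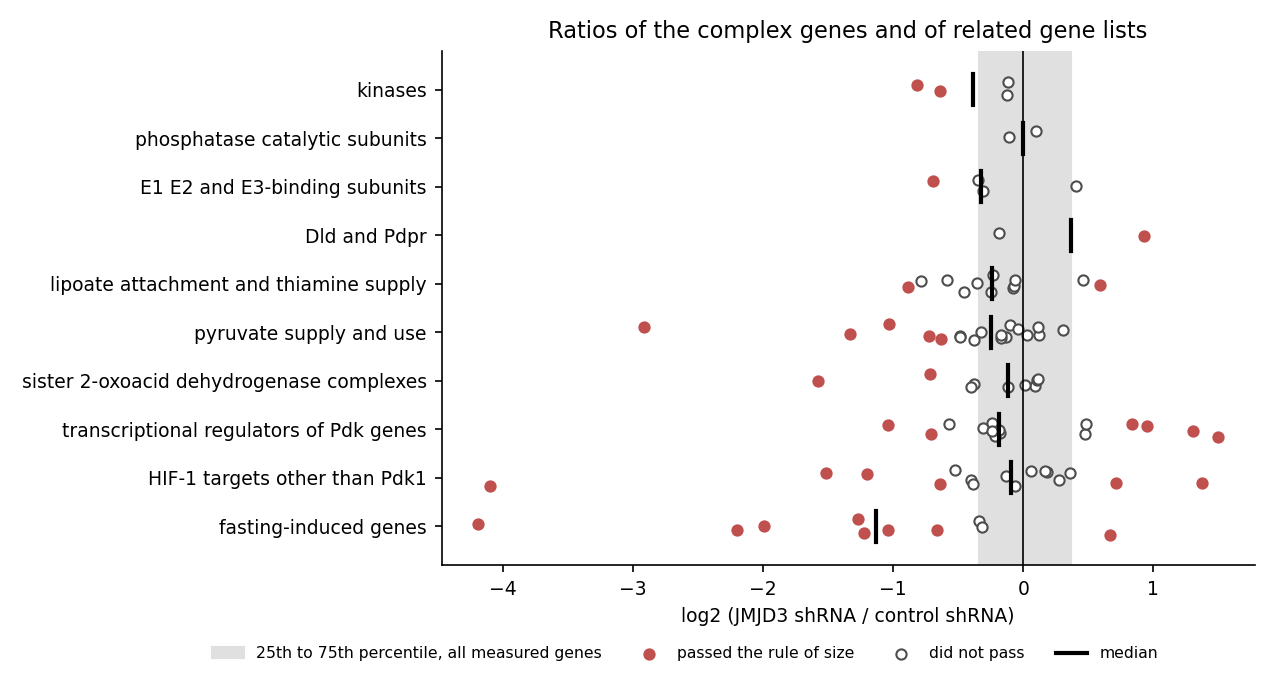
Log2 ratio of the JMJD3 shRNA library over the control library for each measured gene of the complex and of related lists, with the list median as a black bar. Red points passed the rule of size, open points did not, and the grey band spans the 25th to 75th percentile of all measured genes; the fasting-induced genes have the lowest median, -1.13.

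Factors known to act on Pdk genes went both ways, with 2 of 15 measured lower, 4 higher and a median of -0.19. Ppara and Foxo1, both known to raise Pdk4 in fasting, were at -0.24 (-0.58 to 0.10) and -0.31 (-0.46 to -0.16) and did not pass. Nr3c1, the glucocorticoid receptor, which also raises Pdk4, passed as higher at 189.4 CPM in the JMJD3 shRNA library against 106.0 CPM in control, for a log2 ratio of 0.84 (0.74 to 0.93). The coactivator Ppargc1a was lowest at -1.04 (-1.22 to -0.85) and Myc highest, at 255.6 CPM in the JMJD3 shRNA library against 90.6 CPM in control. Hif1a and Hnf4a, the most abundant, were at 0.47 and -0.57.

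Among 10 fasting-induced genes other than Pdk4, 7 passed as lower and 1 as higher. Their median was -1.13, so the log2 ratio of Pdk4, -0.64, lay nearer to 0 than that median. Tat, which breaks down tyrosine, was lowest at -4.19, Cpt1a, the gate of fatty acids into mitochondria, was at -1.99, and the lipase inhibitor Angptl4 was highest at 0.67. HIF-1 targets other than Pdk1 were lower in 4 and higher in 2 of 16 measured, with a median of -0.10. The prolyl hydroxylase Egln3 was lowest at -4.10 (-4.29 to -3.91) and the glycolytic regulator Pfkfb3 highest at 1.38 (1.14 to 1.62), while Ldha and Vegfa were at -0.13 and -0.64. The log2 ratio of Pdk1, -0.12, was close to that median.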

How the data were processed

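Messenger RNA of 1 JMJD3 shRNA library and 1 control library was sequenced in pairs of 100 bp reads, per the labels' protocols, and groups were taken from the sample titles. The deposited values are whole-number read counts per gene from featureCounts 1.4.6-p4, with exons of UCSC mm9 gene models and strand not used, per the file headers. The command recorded in the headers held no option for pairs or for reads that map to several places, so mates were counted singly and reads shared by genes were left out. The submitters' processing notes name STAR 2.5.3a, Trimmomatic 0.36, FastQC 0.11.5, edgeR and bcl2fastq 2.17.1.14. The authors' deposited table holds log2 fold changes, average log2 CPM, p-values and adjusted p-values, and no header or label states the test behind it. The exon length of each gene is the other deposited value used, as given by featureCounts.

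Counts were scaled by TMM (edgeR 4.0.16, R 4.3.3). A ratio has no pseudocount and carries a Clopper-Pearson 95% interval (scipy 1.17.1), which is too narrow where both mates were counted. Odds ratios carry exact conditional 95% intervals, unadjusted over the 10 gene pairs and 2 pairs of sums, most of which were chosen after their values were seen. With 1 library a group no p-value was computed. The 10 genes and all lists were chosen with earlier results of these data known. Beyond Kdm6b and all 10 genes, the 2 most abundant, the highest and the lowest gene of each list other than the cell type markers were named, with Dld, Pdpr, Pdha2, Ppara, Foxo1, Nr3c1, Hif1a and both pyruvate carrier genes. Marker lists are given as counts and sums, and the markers named were chosen after their values were seen. Some genes that a list would hold are not reported here and were left out of its counts. The procedure was tried on simulated Poisson counts. These held no spread between cultures, doubly counted mates or length trend, so they could not test those limits. Tried as alternatives were other scalings (DESeq2 1.42.0 among them), filters, thresholds, removal of the length trend (lowess, statsmodels 0.14.6), the authors' values and halved counts. RefSeq windows matched 9 of the 10 genes by symbol.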

Additional observations from a re-analysis of the deposited data

How the results depend on the processing

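Across 4 scalings, the filters on low counts, removal of the exon-length trend, the authors' deposited values and halved counts (added after seeing the data), the ratios of the 10 genes kept their direction with 1 exception. Pdp1, whose interval includes 1, was at -0.0252 with the length trend removed. That setting also took Pdhb to -0.52 and out of the rule of size, which left 2 genes lower. It alone could move the genes against each other, so the kept directions under the other settings say little. The filters and halved counts cannot change a ratio, and a scaling shifts every gene alike. The authors' ratios were the same to within 0.000662. With the adjusted p-value of the authors' deposited table Pdk4, at -0.64, did not pass. Among 10 gene pairs, removal of the length trend, tried on them after seeing the data, turned Pdhx against Dlat to 1.08 and took Dlat against Pdhb to 1.07 and Pdk4 against Pdk1 to 0.752, with intervals that include 1. At 2-fold, 0 of the 10 genes passed. Halving the counts, as if both mates of every pair had been counted, left the calls of the 10 genes as they were, with Pdk4 at an interval of -1.19 to -0.09. As plain reads in place of reads per kilobase, the Pdk2 share was 31.4% in the JMJD3 shRNA library and 41.0% in control and the Pdk1 share 33.7% in the JMJD3 shRNA library and 27.0% in control. The kinase to phosphatase ratio was then 2.39 in the JMJD3 shRNA library and 3.22 in control, and the ratio of kinases to the mean subunit 0.721 in the JMJD3 shRNA library and 0.859 in control, beside 0.638 and 0.737 per kilobase. With unshared exon length, also added later, the alpha to beta ratio was 1.24 in the JMJD3 shRNA library and 0.582 in control. No paired analysis was possible because each group has 1 library, and no replicate could be left out for the same reason. The reads behind Pdk4 and the phosphatases, 115 to 229 a library, limit what could be seen of them.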
